A study of Mus musculus with 30 samples.

Results

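Whole lungs of 16 week old C57BL/6 mice that had inhaled bacterial lipopolysaccharide (LPS) were set against whole lungs of untreated mice of the same strain and age. The 8 arrays of this comparison, 4 per group, were chosen from the 30 arrays of the series by their titles alone. LPS lungs came from mice given E. coli 0111:B4 LPS as an aerosol (20 mL of a 0.1 mg/mL solution over 30 min in a closed chamber) and left to breathe unaided for 2 h with food and water. Control lungs came from untreated, spontaneously breathing mice. No group had spent time in the chamber without LPS, so chamber exposure and LPS cannot be told apart. The same 2 conditions were also measured in 21 day old juveniles, with 4 LPS and 4 control arrays, and those arrays served to test whether the LPS effect differed with age. Each array held total RNA of the lung of 1 animal, hybridized to an Affymetrix mouse expression array.

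Values are probe set intensities on a linear scale, without detection calls, so that levels near or below the array median (21.6 to 22.8 over the 30 arrays) cannot be told from background. Fold changes are differences of mean log2(intensity + 32) between groups, given with their standard error (SE), which understates the change of dim genes. A gene was said to rise or fall where limma's moderated test gave a Benjamini-Hochberg adjusted p under 0.05 over all 13089 genes tested. The lung's own markers were bright on all 8 arrays: surfactant protein C (Sftpc, alveolar type 2 cells) averaged 20092 ± 935 in LPS lungs and 19576 ± 1147 in control lungs (SD, n = 4 each), and Scgb1a1 of airway club cells averaged 20929 ± 1503 in LPS lungs and 21729.8 ± 1483 in control lungs (SD, n = 4 each). Ager (alveolar type 1 cells) averaged 9368 ± 650.3 in LPS lungs and 11992 ± 936 in control lungs (SD, n = 4 each), and Cdh5 (endothelium) averaged 685 ± 33.8 in LPS lungs and 749 ± 64.5 in control lungs (SD, n = 4 each). Foxj1 of ciliated cells was dimmer, at 137 ± 17.5 in LPS lungs and 146 ± 11.1 in control lungs (SD, n = 4 each). The labels give no sex. Xist lay between 20.3 and 27.0 in LPS lungs and between 19.5 and 22.3 in control lungs, and the Y-linked Eif2s3y between 199 and 230 in LPS lungs and between 160 and 204 in control lungs, so the sex-linked genes did not separate the groups. Control lungs 3 and 4 stood apart from control lungs 1 and 2 in neutrophil and some inflammatory transcripts, as given below. Calls in adults that ended without both are given for the genes described.

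LPS, the main glycolipid of the gram-negative outer membrane, is handed by LPS-binding protein and CD14 to the receptor TLR4 with its partner MD-2. The adaptor MyD88 then leads to NF-kB and the MAP kinases, which switch on chemokine and cytokine genes, and the adaptor TRIF leads to IRF3, type I interferon and interferon-stimulated genes. In the lung, alveolar macrophages, epithelium and endothelium all respond, and neutrophils leave the blood for the airspace along chemokine gradients. NF-kB also induces its own inhibitors, which limit the response.

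Promoters are shown for 4 chemokine or NF-kB feedback genes and 4 interferon-stimulated genes, because both arms of this pathway end at short sequence words near the start of transcription. They are those with the highest fold changes among genes with an entry in the promoter table, leaving out a chromosome named below. Each run holds 250 bases before to 50 bases after the start site (RefSeq, build GRCm38.p6), 5′ to 3′ on the gene's own strand. Capitals mark the NF-kB word (GGG and TTTCC with any 2 bases between them) and the interferon response word (GAAA and again GAAA with any 2 bases between them), each read on both strands. The 4 chemokine promoters lie at chr5:90890995-90891294, plus strand (Cxcl1), chr5:90903649-90903948, plus strand (Cxcl2), chr5:90785851-90786150, plus strand (Cxcl3) and chr5:92348840-92349139, minus strand (Cxcl10).
Cxcl1: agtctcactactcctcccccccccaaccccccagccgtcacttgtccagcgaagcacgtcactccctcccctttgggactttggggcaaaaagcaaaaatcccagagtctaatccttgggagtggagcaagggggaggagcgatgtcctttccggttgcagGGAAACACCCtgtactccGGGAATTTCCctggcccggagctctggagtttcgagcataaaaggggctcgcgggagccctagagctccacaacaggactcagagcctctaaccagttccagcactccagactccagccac
Cxcl2: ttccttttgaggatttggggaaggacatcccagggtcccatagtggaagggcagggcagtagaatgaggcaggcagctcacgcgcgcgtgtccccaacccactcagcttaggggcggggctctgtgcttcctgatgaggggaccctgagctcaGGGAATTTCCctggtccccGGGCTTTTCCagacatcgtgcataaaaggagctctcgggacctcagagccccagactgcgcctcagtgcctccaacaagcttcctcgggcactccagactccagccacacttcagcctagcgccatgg
Cxcl3: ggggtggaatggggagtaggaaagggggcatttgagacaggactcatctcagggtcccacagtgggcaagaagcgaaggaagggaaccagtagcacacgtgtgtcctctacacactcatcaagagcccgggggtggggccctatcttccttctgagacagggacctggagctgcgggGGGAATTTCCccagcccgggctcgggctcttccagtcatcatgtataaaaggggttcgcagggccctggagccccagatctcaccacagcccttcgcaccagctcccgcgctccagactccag
Cxcl10: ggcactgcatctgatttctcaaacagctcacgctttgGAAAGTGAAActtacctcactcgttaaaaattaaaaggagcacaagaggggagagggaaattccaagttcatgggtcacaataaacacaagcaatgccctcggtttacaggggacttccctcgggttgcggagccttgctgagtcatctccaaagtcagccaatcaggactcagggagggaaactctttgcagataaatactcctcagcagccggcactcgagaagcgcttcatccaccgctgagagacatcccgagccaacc
The NF-kB word began 89 and 71 bases before the start site of Cxcl1, 97 and 78 before that of Cxcl2, and 73 before that of Cxcl3. Cxcl10 held no exact NF-kB word in this window and 1 interferon response word 213 bases before the start.

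The interferon-stimulated promoters lie at chr19:34640639-34640938, plus strand (Ifit1), chr5:114922990-114923289, plus strand (Oasl1), chr19:34583279-34583578, plus strand (Ifit3) and chr12:26456403-26456702, minus strand (Rsad2).
Ifit1: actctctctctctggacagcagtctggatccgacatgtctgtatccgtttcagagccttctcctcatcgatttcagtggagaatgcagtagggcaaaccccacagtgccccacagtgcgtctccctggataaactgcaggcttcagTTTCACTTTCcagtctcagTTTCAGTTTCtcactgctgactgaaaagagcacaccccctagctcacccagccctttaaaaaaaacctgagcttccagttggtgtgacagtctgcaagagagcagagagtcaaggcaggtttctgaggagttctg
Oasl1: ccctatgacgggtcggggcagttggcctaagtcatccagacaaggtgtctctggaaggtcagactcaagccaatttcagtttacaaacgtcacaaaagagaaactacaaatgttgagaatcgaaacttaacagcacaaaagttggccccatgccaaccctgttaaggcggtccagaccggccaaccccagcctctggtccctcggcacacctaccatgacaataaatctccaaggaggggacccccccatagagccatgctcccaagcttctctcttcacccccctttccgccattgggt
Ifit3: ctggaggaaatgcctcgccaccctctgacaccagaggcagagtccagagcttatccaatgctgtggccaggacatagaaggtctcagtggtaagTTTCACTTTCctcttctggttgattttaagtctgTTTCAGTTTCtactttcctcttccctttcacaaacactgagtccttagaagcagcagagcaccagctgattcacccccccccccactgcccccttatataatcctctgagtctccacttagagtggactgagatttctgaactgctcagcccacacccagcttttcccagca
Rsad2: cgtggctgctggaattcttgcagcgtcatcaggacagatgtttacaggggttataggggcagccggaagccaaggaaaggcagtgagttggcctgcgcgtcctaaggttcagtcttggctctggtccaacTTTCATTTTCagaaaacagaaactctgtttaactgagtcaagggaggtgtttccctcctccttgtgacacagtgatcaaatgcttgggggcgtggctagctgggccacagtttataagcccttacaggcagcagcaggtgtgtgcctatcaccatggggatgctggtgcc
The promoter of Oasl1 held neither word. In the other 3 the interferon response word lay on the opposite strand, 104 and 85 bases before the start of Ifit1, 156 and 122 before that of Ifit3, and 120 before that of Rsad2. Cxcl5 and Iigp1, whose fold changes were among the highest of their lists, had no entry and are not shown. The exact NF-kB word was found in 7.84% of promoters of genes raised at least 2-fold (16 of 204 with a promoter entry), against 1.65% of the 10528 tested genes with an entry and 1.62% of all 27025 genes in the table. The interferon response word was found in 7.35% of the raised set (15 of 204), against 2.96% of tested genes and 3.49% of all genes. The AP-1 word TGANTCA, which overlaps neither of the others, was found in 13.7% of the raised set (28 of 204), against 5.29% of tested genes and 7.93% of all genes. Among genes lowered at least 2-fold, 0 of 50 promoters held the NF-kB or the interferon response word and 2 (4%) held the AP-1 word. With 1.65%, 2.96% and 5.29% of tested genes holding these words, 50 promoters are too few to tell such counts from the background. By list, 12 of 18 promoters of interferon-stimulated genes held the interferon response word, and 6 of 16 promoters of NF-kB subunits and feedback inhibitors held the NF-kB word. A match describes these letters only and is no measurement of binding.

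Over all genes tested, 4706 (36.0%) passed the test, with 1694 higher (12.9%) and 3012 lower (23.0%) in LPS lungs. The median log2 fold change of all genes was -0.04. Large changes ran mostly upward: of the 324 genes that passed and changed at least 2-fold (2.48%), 264 were higher (2.02%) and 60 lower (0.458%). The LPS and control arrays did not overlap for 34.6% of all genes, and 29.5% both passed and did not overlap. The counts and medians of the lists below are to be read against these shares.

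Chemokines that draw neutrophils were among the most raised transcripts of adult lungs. Of the 6 neutrophil-attracting CXC chemokines, 4 rose and 2 did not pass (median log2 fold change 4.90). Cxcl1 gave intensities of 1618, 1484, 1748 and 1727 in LPS lungs, against 12.9, 16.1, 12.5 and 14.3 in control lungs. Cxcl2 gave 1451, 1340.1, 1192 and 1396 in LPS lungs, against 8.63, 8.84, 9.13 and 11.4 in control lungs. Cxcl5, made largely by the epithelium, gave 1593, 1234, 1482 and 1305 in LPS lungs, against 10.4, 12.8, 10.3 and 11.1 in control lungs. In each of these genes all 4 LPS arrays lay far above all 4 control arrays, whose values were below the array median, and the LPS arrays differed among themselves by a small part of the gap. The log2 fold changes were 5.19 ± 0.19, adjusted p = 9.8e-18 for Cxcl1, 5.05 ± 0.18 for Cxcl2, 5.05 ± 0.18 for Cxcl5 and 4.74 ± 0.14 for Cxcl3. The members that did not pass were Cxcl15 (-0.04 ± 0.07), a lung-specific chemokine bright in both groups at 7726 ± 301 in LPS lungs and 7933 ± 194 in control lungs (SD, n = 4 each), and the platelet chemokine Ppbp (-0.29 ± 0.27).

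Chemokines for monocytes, dendritic cells and T cells rose as well. Of the 14 CC chemokines tested, 11 rose and 3 did not pass (median 2.05). Ccl20, the ligand of CCR6 made by epithelium, gave 1548, 1026, 1311 and 1452 in LPS lungs, against 20.5, 16.7, 24.3 and 20.9 in control lungs. Ccl17, a ligand of CCR4, gave 902, 1254, 1396 and 1322 in LPS lungs, against 60.6, 62.6, 67.9 and 62.4 in control lungs. Both groups were tight and wide apart for both genes, at 4.69 ± 0.11 for Ccl20 and 3.70 ± 0.20 for Ccl17. The monocyte chemokines Ccl2 (3.39 ± 0.22) and Ccl12 (2.18 ± 0.11) and the macrophage product Ccl3 (3.37 ± 0.18) rose too. Among 8 other CXC and CX3C chemokines, 6 rose and 1 fell (median 0.58). Those that rose included Cxcl10, an interferon-inducible ligand of CXCR3, at 1488, 2471, 2358 and 2753 in LPS lungs, against 23.7, 28.3, 51.1 and 18.4 in control lungs. LPS lung 1 was the lowest of its group for Cxcl10 and still far above every control. The homeostatic chemokine Cxcl12 (-0.35 ± 0.13), which holds leukocytes and progenitors in place, was the member that fell, and its call ended without LPS lung 1 or 3 or control 1 or 2 (adjusted p from 0.066 to 0.14).

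**Figure D1:**
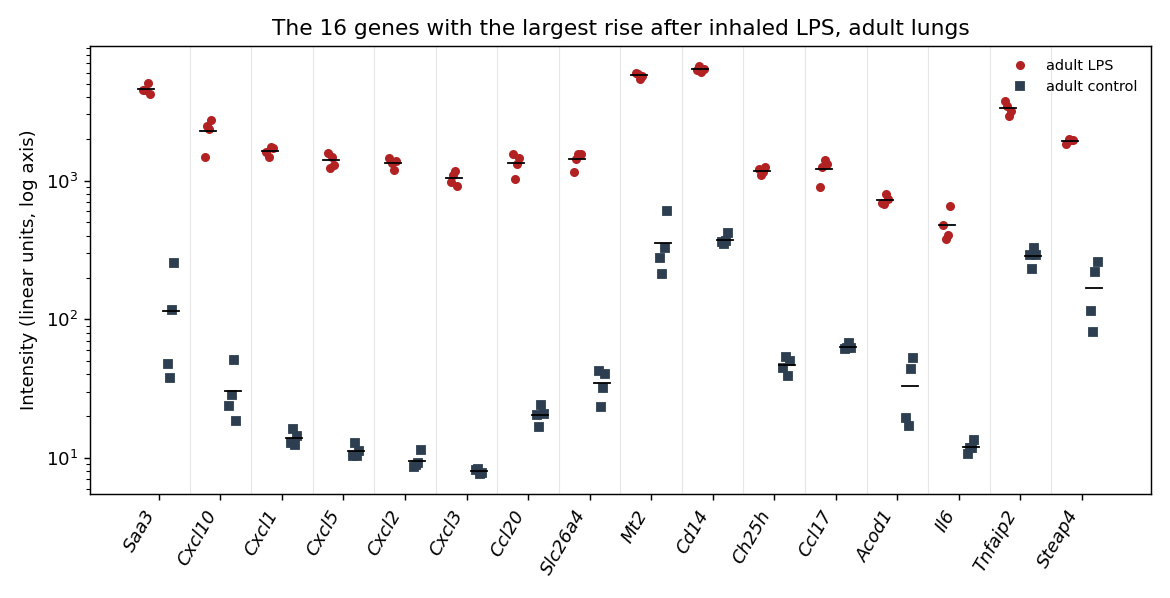
Intensity (linear units, log axis) of the 16 genes with the largest log2 fold change among those that passed and did not overlap, with 1 point per array, adult LPS as circles and adult control as squares, and bars at the group means. By this choice all 4 LPS arrays lie above all 4 controls for each gene. Controls 3 and 4 are the highest controls for Saa3 (117 and 255) and Acod1 (43.9 and 52.5).

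Cytokine transcripts rose too. Of the 18 cytokines and colony-stimulating factors tested, 13 rose and 5 did not pass (median 1.12). Interleukin 6 gave 482, 381, 405 and 657 in LPS lungs, against 10.6, 11.8, 11.9 and 13.5 in control lungs. Il1b gave 1899.8, 2414, 2603 and 2139 in LPS lungs, against 203, 180.0, 609.9 and 629 in control lungs. Tnf gave 105, 157, 126 and 114 in LPS lungs, against 38.0, 45.0, 36.0 and 48.9 in control lungs. No array of either group overlapped the other for these genes, and Il1b separated the controls themselves, with controls 3 and 4 well above controls 1 and 2. The log2 fold changes were 3.52 ± 0.37 (Il6), 2.58 ± 0.32 (Il1b) and 1.09 ± 0.12 (Tnf, adjusted p = 9.3e-08). The growth factors of granulocytes and macrophages Csf2 (2.52 ± 0.15), Csf3 (1.27 ± 0.19) and Csf1 (1.25 ± 0.12) rose, as did the alarmins Il33 (1.72 ± 0.16) and Il1a (1.68 ± 0.16) and the interleukin 1 receptor antagonist Il1rn (1.76 ± 0.12). Il10, Il12a, Il12b, Il23a, Ifnb1 and Ifng were below the filter on dim probe sets and were not tested, and with all dim probe sets kept the list median was 0.41.

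Cytokine receptors mostly rose. Of 26 cytokine receptors, 18 rose and 2 fell (median 0.39). The decoy receptor Il1r2, which binds interleukin 1 without signalling, was the highest at 1039, 492, 555 and 785 in LPS lungs, against 35.6, 29.3, 83.6 and 129 in control lungs (2.94 ± 0.29, adjusted p = 9.2e-09). LPS lung 1 was the highest of its group, and the groups did not overlap. The oncostatin M receptor Osmr (1.93 ± 0.09) and Csf3r, the granulocyte colony-stimulating factor receptor of neutrophils (1.33 ± 0.34), also rose, and the leukaemia inhibitory factor receptor Lifr (-1.10 ± 0.10) and Csf1r (-0.33 ± 0.13) fell. The call for Csf1r ended when any 1 of LPS lungs 2, 3 and 4 or of controls 1, 3 and 4 was left out (adjusted p from 0.065 to 0.13). It also ended without control lungs 3 and 4 together (adjusted p = 0.18). For Lifr, 1 of 3 probe sets passed, with values between -1.10 and 0.03. Of 11 chemokine receptors, 5 rose, 2 fell and 4 did not pass. Ccr1 (2.05 ± 0.28) and Ccrl2 (1.51 ± 0.14) rose, and the fractalkine receptor Cx3cr1 (-0.79 ± 0.12), found on patrolling monocytes, fell.

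The LPS receptor itself changed unevenly. Cd14, the co-receptor that loads LPS on TLR4, gave 6288, 6668, 6043 and 6425 in LPS lungs, against 360.2, 349, 366 and 416 in control lungs. All 4 LPS arrays lay close together and far above the controls, with a log2 fold change of 3.98 ± 0.11, adjusted p = 3.3e-20. Tlr2, the receptor of bacterial lipopeptides, gave 940.2, 1056, 1029 and 949.6 in LPS lungs, against 169, 155, 183 and 168 in control lungs (2.35 ± 0.12). Tlr4 gave 159.9, 110.1, 129 and 144 in LPS lungs, against 87.4, 81.0, 76.9 and 98.7 in control lungs (0.50 ± 0.11, adjusted p = 5.3e-04). The groups did not overlap for Tlr4, but 1 of its 3 probe sets passed and the others gave log2 fold changes down to -0.04, and with the mean over probe sets the value was 0.19 (adjusted p = 0.12). The adaptor Myd88 (1.30 ± 0.12) and the MD-2 gene Ly96 (0.38 ± 0.09) rose. In all, 11 of 19 genes of the LPS receptor complex and TLR adaptors rose (median 0.26), which included Irak3 (0.78 ± 0.10), a brake on the pathway.

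NF-kB genes rose nearly throughout. Of 19 NF-kB subunits and feedback inhibitors, 17 rose and 2 did not pass (median 0.93), and the groups did not overlap in 17. The inhibitor Tnfaip3, the ubiquitin-editing enzyme A20, was the highest, with a log2 fold change of 2.93 ± 0.14. Nfkbiz rose by 2.37 ± 0.22, Birc3 by 2.21 ± 0.10 and Tnip1 by 2.12 ± 0.09, adjusted p = 2.6e-16. Nfkbia, which encodes the inhibitor IkB-alpha, averaged 8171 ± 431 in LPS lungs and 2716 ± 310.5 in control lungs (SD, n = 4 each) and rose by 1.58 ± 0.09. The subunits Relb (1.93 ± 0.12) and Nfkb2 (1.54 ± 0.12) rose as well. Of 14 JAK, STAT and SOCS genes, 7 rose and 7 did not pass. Socs3, which blocks JAK kinases, rose by 2.61 ± 0.29, adjusted p = 9.2e-08, and the mRNA decay factors Zfp36 (1.5 ± 0.24) and Zc3h12a (1.21 ± 0.12), which destroy cytokine mRNAs, rose too. Of 13 MAPK phosphatases and mRNA decay factors, 4 rose, 1 fell and 8 did not pass. Dusp1, a phosphatase of stress kinases, did not pass (-0.35 ± 0.28).

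**Figure D2:**
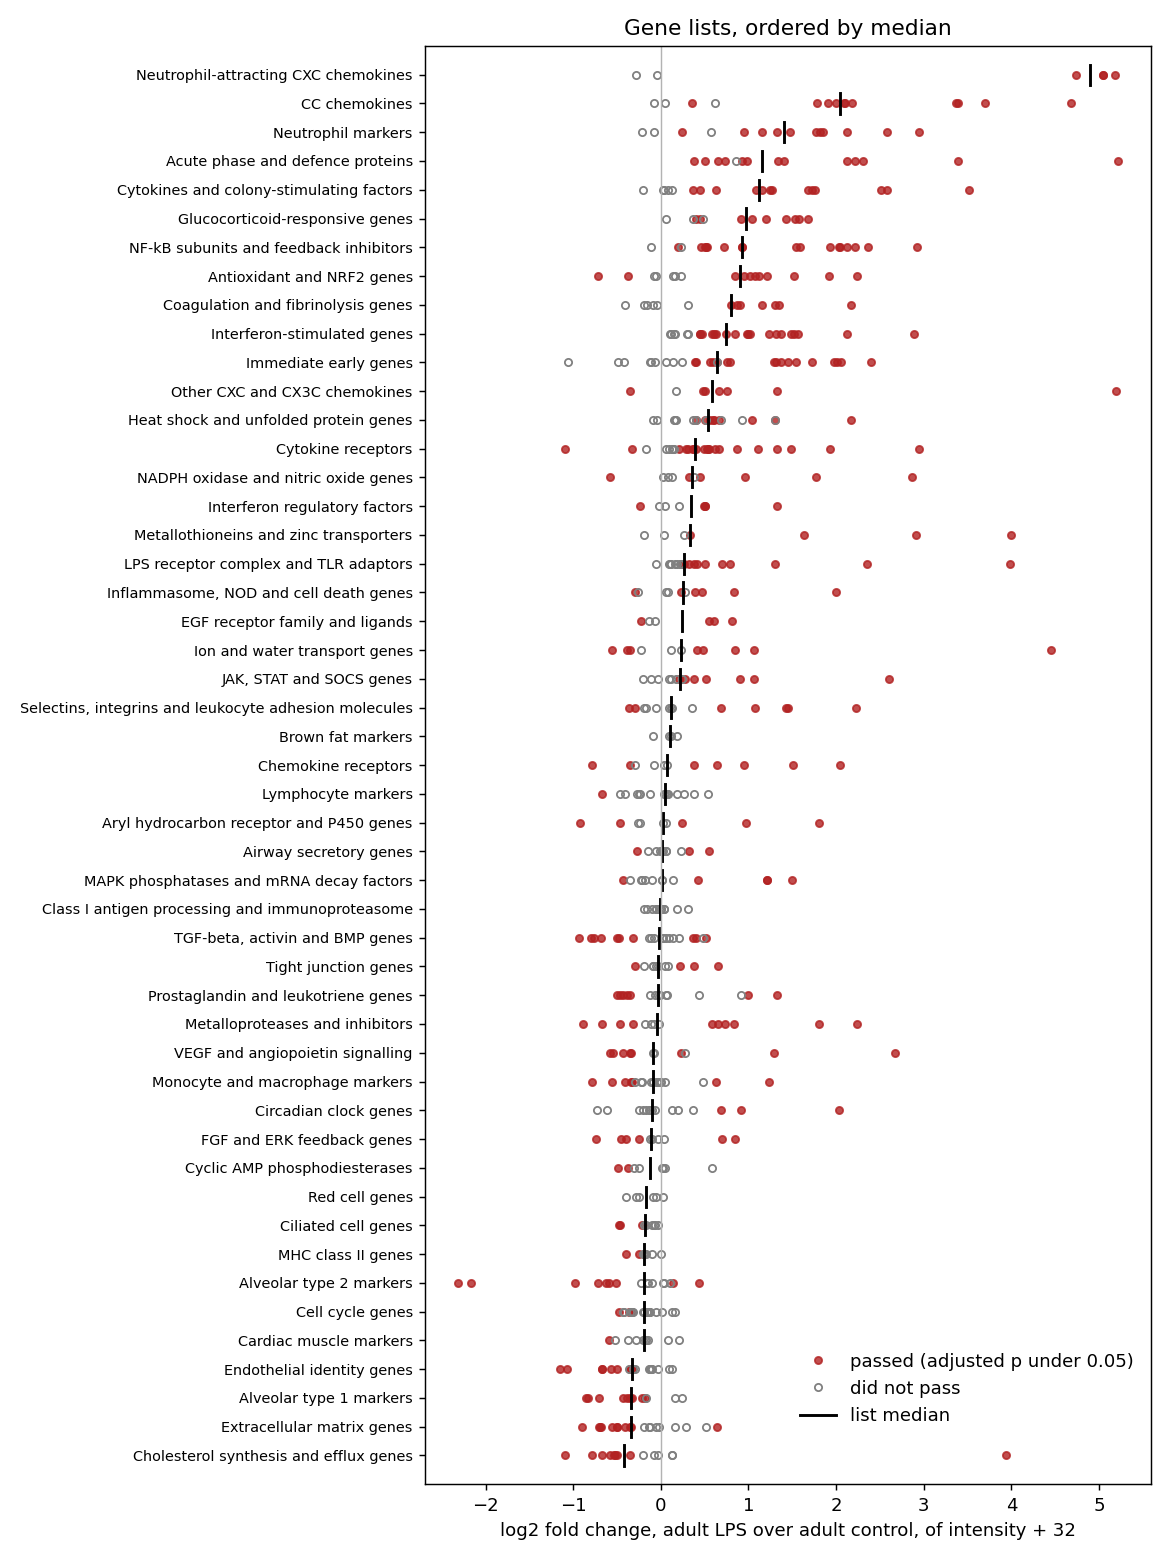
Log2 fold change of intensity + 32, adult LPS over adult control, of each tested member of 49 gene lists, ordered by list median (black bar), with filled points for members that passed and open points for those that did not. Chemokine, neutrophil, acute phase and cytokine lists stand at the top, and cholesterol synthesis, matrix, alveolar type 1 and endothelial lists at the bottom.

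Interferon-stimulated genes, the other arm of the pathway, rose in most cases. Of 25 tested, 19 rose and 6 did not pass (median 0.74). Ifit1, which binds foreign RNA and whose promoter with 2 response words is given above, had 1005, 1544, 1615 and 1498 in LPS lungs, against 173, 169, 172 and 133 in control lungs. Ifit3 had 676, 1475, 1241 and 1129 in LPS lungs, against 410.3, 312, 388 and 327 in control lungs. LPS lung 1 was the lowest of its group for both genes, and the groups did not overlap. The changes were 2.89 ± 0.20, adjusted p = 8.1e-12 for Ifit1 and 1.52 ± 0.20 for Ifit3. The GTPases Iigp1 (2.12 ± 0.33) and Irgm1 (1.37 ± 0.22) of cell-autonomous defence and the antiviral proteins Rsad2 (1.49 ± 0.22) and Oasl1 (1.57 ± 0.15) rose as well, although the Oasl1 promoter held neither word. Of 8 interferon regulatory factors, 4 rose and 1 fell, with Irf1 (1.33 ± 0.14) the highest. Antigen presentation genes gave other counts. By limma, 0 of 12 genes of class I antigen processing and the immunoproteasome passed, with 0 at an unadjusted p under 0.05 (median -0.01). Tapbp, which loads peptides on class I molecules (-0.19 ± 0.10), passed as lower under 4 other settings (adjusted p from 0.014 to 0.046), and 1 of its 2 probe sets passed. Tap1, a peptide transporter (0.31 ± 0.21), passed as higher with only the compared arrays in the fit (adjusted p = 0.045). Of 8 MHC class II genes, 2 fell, H2-DMa (-0.40 ± 0.11) and Cd74 (-0.25 ± 0.08). The Cd74 call ended without LPS lung 3 (adjusted p = 0.050).

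Acute phase and defence proteins rose nearly throughout. Of 14 tested, 13 rose and 1 did not pass (median 1.16). Saa3, a serum amyloid A made outside the liver, gave 4524, 4521, 5047 and 4215 in LPS lungs, against 47.6, 37.7, 117 and 255 in control lungs. Its LPS arrays lay within a narrow band, the controls spread widely with controls 3 and 4 highest, and the log2 fold change was 5.21 ± 0.30, adjusted p = 1.7e-13. Lcn2, which withholds iron from bacteria, averaged 6501 ± 511 in LPS lungs and 1479.8 ± 692 in control lungs (SD, n = 4 each) (2.22 ± 0.21). The metalloreductase Steap4 (3.40 ± 0.21), the pattern receptor Ptx3 (2.13 ± 0.25) and the liver-type Saa1 (2.30 ± 0.17) rose too. Metal binding went the same way, with 4 of 7 metallothioneins and zinc transporters higher. Mt2 gave 6014, 5845, 5429 and 5711 in LPS lungs, against 276, 213, 326 and 602 in control lungs (4.00 ± 0.25, adjusted p = 1.1e-12), and Mt1 rose by 2.91 ± 0.23 and the zinc importer Slc39a14 by 1.64 ± 0.12. For Slc39a14, 2 of 3 probe sets passed.

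Redox genes rose in part. Of 16 antioxidant and NRF2 genes, 9 rose, 2 fell and 5 did not pass (median 0.90). Gclc, the catalytic subunit that makes the glutathione precursor, averaged 5079.9 ± 349.6 in LPS lungs and 1051 ± 31.1 in control lungs (SD, n = 4 each) (2.24 ± 0.15, adjusted p = 6.9e-12), and mitochondrial Sod2 (1.92 ± 0.06), Txnrd1 (1.52 ± 0.09) and the haem oxygenase Hmox1 (1.02 ± 0.18) rose. The classic NRF2 target Nqo1 (0.16 ± 0.09) did not pass, and extracellular Sod3 (-0.72 ± 0.13) fell. Of 10 NADPH oxidase and nitric oxide genes, 5 rose and 1 fell. The arginase Arg2 (2.87 ± 0.23) and Gch1 (1.77 ± 0.17), which makes a cofactor of nitric oxide synthases, rose, and the inducible synthase Nos2 (0.02 ± 0.05) did not pass.

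Metabolite and transport genes held some of the largest changes. Acod1, which makes itaconate in activated macrophages, gave 687, 681, 795 and 734 in LPS lungs, against 19.3, 17.0, 43.9 and 52.5 in control lungs (3.57 ± 0.17). Ch25h, which turns cholesterol into 25-hydroxycholesterol, gave 1210.1, 1088, 1148 and 1252 in LPS lungs, against 44.4, 53.6, 39.3 and 49.7 in control lungs (3.94 ± 0.24, adjusted p = 4.5e-13). Slc26a4, the epithelial anion exchanger pendrin, gave 1153, 1432, 1543 and 1561 in LPS lungs, against 42.7, 23.4, 32 and 40.5 in control lungs (4.45 ± 0.15). In all 3 genes the lowest LPS array was far above the highest control. Of 11 ion and water transport genes, 5 rose and 3 fell: the chloride channel Cftr (1.06 ± 0.15) and the cotransporter Slc12a2 (0.49 ± 0.08) rose with pendrin, and the sodium channel subunit Scnn1g (-0.55 ± 0.07) fell. Of 14 cholesterol synthesis and efflux genes, 1 rose, Ch25h, and 8 fell (median -0.42). Those that fell included the transcription factor Srebf1 (-1.09 ± 0.13) and the efflux transporter Abcg1 (-0.54 ± 0.07).

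Several leukocyte adhesion molecules of the vessel wall rose. Icam1, the ligand of leukocyte integrins, gave 5464, 5717, 4887 and 5027 in LPS lungs, against 1939, 1914, 1857 and 1891 in control lungs. Selp, which starts the rolling of neutrophils, gave 502, 313, 285 and 366 in LPS lungs, against 46.4, 43.0, 51.2 and 65.6 in control lungs. Vcam1 gave 1421, 1555, 1452 and 1509 in LPS lungs, against 718, 527, 530.5 and 396 in control lungs. The groups were apart for all 3, at 1.45 ± 0.09, adjusted p = 1.0e-12 for Icam1, 2.23 ± 0.16 for Selp and 1.43 ± 0.14 for Vcam1, and Sele was dim but rose by 0.68 ± 0.15. Over the list of selectins, integrins and leukocyte adhesion molecules, 5 of 14 rose and 2 fell (median 0.12, and 0.36 without control lungs 3 and 4). Of 13 coagulation and fibrinolysis genes, 7 rose and 6 did not pass. They included Thbs1, a platelet and matrix protein that averaged 2434 ± 268 in LPS lungs and 517 ± 54.9 in control lungs (SD, n = 4 each) (2.17 ± 0.30), and tissue factor, F3 (0.91 ± 0.15), the trigger of clotting.

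Of 20 endothelial identity genes, 9 fell and 11 did not pass (median -0.33, against -0.04 over all genes). Sox17, a factor of arterial endothelium, gave 245, 154, 192 and 162 in LPS lungs, against 563, 469, 361 and 436 in control lungs (-1.15 ± 0.17, adjusted p = 4.5e-06). Klf2, the flow-responsive factor of resting endothelium, gave 578, 492, 427 and 667 in LPS lungs, against 837, 2056, 982 and 1039 in control lungs (-1.07 ± 0.25). The groups did not overlap in either gene, and control lung 2 was the highest for Klf2. The VEGF receptor Kdr (-0.67 ± 0.12) and Sox18 (-0.67 ± 0.14) fell, and the junction gene Cdh5 (-0.12 ± 0.11) did not pass. In whole lung, fewer cells of a type and less RNA per cell cannot be told apart. Among VEGF and angiopoietin genes, the vasodilator peptide Adm (2.68 ± 0.22) and Hif1a (1.30 ± 0.08) rose and the co-receptor Nrp1 (-0.55 ± 0.08) fell. Of 20 TGF-beta, activin and BMP genes, 7 fell and 3 rose, led by Bmp4 (-0.94 ± 0.12) and Tgfb3 (-0.79 ± 0.11).

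Most neutrophil markers were higher in LPS lungs, against controls that differed widely. Of 14 neutrophil markers tested, 11 rose and 3 did not pass (median 1.40). The groups did not overlap in only 6 of the 14, against 34.6% of all genes. S100a8, an abundant neutrophil cytosolic protein, gave 14841, 10546, 11032 and 9726 in LPS lungs, against 1987, 1353, 8908 and 11365 in control lungs. S100a9, its partner, gave 14801, 10414, 10446 and 9099 in LPS lungs, against 1564, 862, 6999.6 and 9471 in control lungs. Clec4e, the glycolipid receptor Mincle, gave 784, 544, 720.3 and 662 in LPS lungs, against 29.6, 18.3, 111 and 123 in control lungs. Controls 3 and 4 overlapped the LPS arrays for S100a8 and S100a9 but not for Clec4e. Summed over the neutrophil markers, the intensity was 39847, 26382, 27242 and 24555 in LPS lungs 1 to 4 and 4896, 3283, 18906 and 25093 in control lungs 1 to 4, so control 4 lay above LPS lung 4. The changes were 1.47 ± 0.52, adjusted p = 0.028 for S100a8, 1.82 ± 0.54, adjusted p = 0.0092 for S100a9 and 2.95 ± 0.25, adjusted p = 4.9e-10 for Clec4e. The S100a8 call ended without LPS lung 1 (0.071), control 1 (0.12) or control 2 (0.16), and the S100a9 call without control 2 (0.068, all adjusted p). Without control lungs 3 and 4, 11 markers rose and the list median was 2.32, whereas without control 2 alone the median was 0.93. Without LPS lung 1, 8 rose.

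Not every neutrophil marker rose. Ngp, a granule gene of neutrophils that mature in the marrow, gave 499.5, 52.9, 60.4 and 62.7 in LPS lungs, against 45.0, 29.5, 171 and 485 in control lungs. Mmp8 gave 1798, 383, 482 and 397 in LPS lungs, against 62.1, 27.3, 318 and 608 in control lungs. LPS lung 1 and control 4 were the high arrays of both genes, and the groups overlapped. Ngp (-0.08 ± 0.50), Camp (-0.21 ± 0.20) and lactoferrin, Ltf (0.57 ± 0.25), did not pass, and Mmp8 passed at 1.77 ± 0.49, adjusted p = 0.0061. Ltf passed with only the compared arrays in the fit (7.6e-04) and with the replicate block (0.041, both adjusted p). Elane and Mpo were below the filter. Trem1, an amplifier of neutrophil activation, gave 663, 320.1, 423 and 511 in LPS lungs, against 64.6, 62.7, 101 and 104 in control lungs (2.13 ± 0.22). Here the groups were apart and LPS lung 1 was again the highest. The chemokine receptor Cxcr2 (0.95 ± 0.31), which neutrophils carry, passed, but not without LPS lung 1 (0.12), control 1 (0.058) or control 2 (0.099, all adjusted p). How much of the rise in Il1b, Csf3r, Cxcr2 or other transcripts that neutrophils carry moved with these cells was not tested.

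Other leukocytes changed less. Of 20 monocyte and macrophage markers, 2 rose, 5 fell and 13 did not pass (median -0.09), with summed intensities of 13170.0, 10871, 11108 and 10244 in LPS lungs and 10962, 10365, 14038 and 13415 in control lungs, which overlapped. The scavenger receptors Marco (1.24 ± 0.15) and Msr1 (0.62 ± 0.11) of alveolar macrophages rose, and Siglecf (-0.55 ± 0.15), found on alveolar macrophages and eosinophils, and Cx3cr1 (-0.79 ± 0.12) fell. For Msr1, 1 of 3 probe sets passed. Without control lungs 3 and 4 only 2 of these markers fell. Of 16 lymphocyte markers, 1 passed and fell, the B cell receptor gene Cd79a (-0.67 ± 0.19), whose call ended without control lungs 3 and 4 (adjusted p = 0.054). Of 10 cardiac muscle markers, 1 fell, with summed intensities of 9561, 7672, 7354 and 7741 in LPS lungs and 9368, 10313, 9466 and 9212 in control lungs. With only the compared arrays in the fit, Myh6 (-0.52 ± 0.26) and Actc1 (-0.38 ± 0.20), of the contractile apparatus, passed as lower and Ucp1 of brown fat (0.18 ± 0.53) as higher (adjusted p from 0.0075 to 0.046). By limma over all 30 arrays, 0 of 6 red cell genes and 0 of 4 brown fat markers passed, with 0 and 0 at an unadjusted p under 0.05.

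The largest falls included genes of the alveolar epithelium. Elf5, an ETS factor of lung epithelium, gave 16.0, 16.9, 20.7 and 19.7 in LPS lungs, against 233, 238, 219 and 184 in control lungs. Etv5, an ETS factor that sustains alveolar type 2 cells, gave 108, 103, 114 and 97.0 in LPS lungs, against 588, 599.6, 550.0 and 594 in control lungs. Cckar, the receptor of cholecystokinin, gave 26.9, 22.3, 23.8 and 24.0 in LPS lungs, against 341, 326, 340.5 and 392 in control lungs. The groups were far apart in all 3 genes, and the LPS arrays of Elf5 and Cckar lay near the array median. The log2 fold changes were -2.76 ± 0.08, adjusted p = 1.0e-19 for Cckar, -2.31 ± 0.09 for Elf5 and -2.16 ± 0.09 for Etv5. Other genes among the 12 lowest were the insulin signalling adaptor Irs1 (-1.62 ± 0.16), the phosphatase inhibitor Ppp1r14c (-1.54 ± 0.10), Dixdc1 (-1.52 ± 0.14), Bex2 (-1.48 ± 0.15), the potassium channel Kcnj13 (-1.41 ± 0.14) and the transcription factors Sox11 (-1.42 ± 0.20), Irx5 (-1.39 ± 0.13) and Snai2 (-1.35 ± 0.16).

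**Figure D3:**
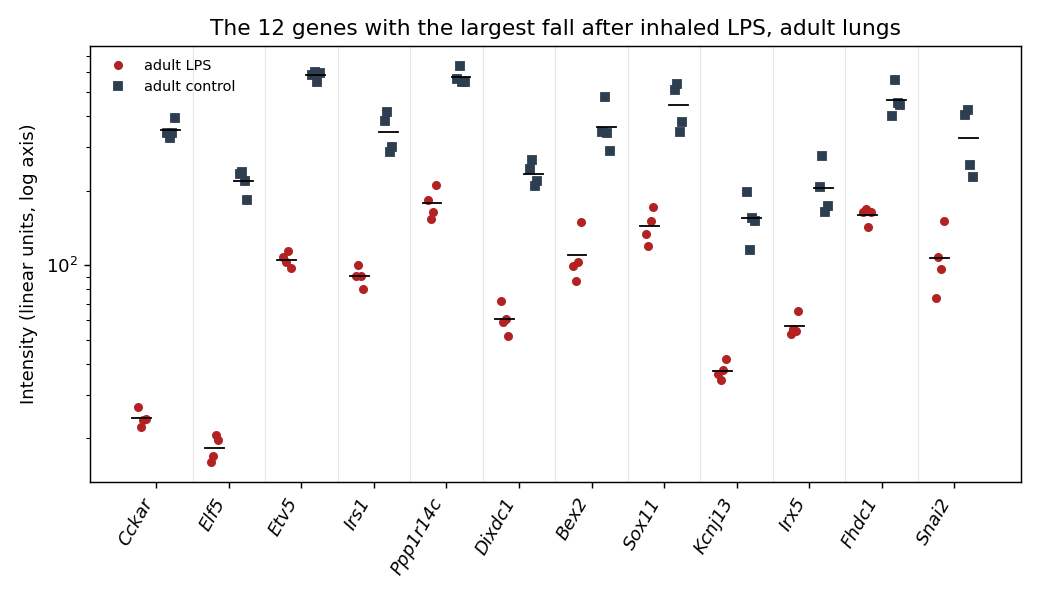
Intensity (linear units, log axis) of the 12 genes with the most negative log2 fold change among those that passed and did not overlap, with 1 point per array, adult LPS as circles and adult control as squares, and bars at the group means. For Cckar the LPS arrays lie between 22.3 and 26.9 and the controls between 326 and 392.

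The alveolar type 2 list was split rather than lowered as a whole. Of 16 markers tested, 7 fell, 2 rose and 7 did not pass (median -0.19). Abca3, the lipid transporter of lamellar bodies, gave 799.8, 808, 698 and 766 in LPS lungs, against 1451, 1734, 1468 and 1521 in control lungs (-0.98 ± 0.12, adjusted p = 2.6e-07). Surfactant protein B (Sftpb) gave 4545, 3714, 3470.2 and 4272 in LPS lungs, against 6513, 6214, 6665 and 6831 in control lungs (-0.72 ± 0.17). Both were lower on all 4 LPS arrays than on any control. The collectin Sftpd moved the other way, at 9761, 10782, 9609 and 9459 in LPS lungs, against 6550.4, 7170.4, 7755 and 7861 in control lungs (0.43 ± 0.08, adjusted p = 5.9e-05), with no overlap. Sftpc, the most specific marker of these cells, did not pass (0.04 ± 0.05), with both groups near the top of the array's range. The lipid enzymes Lpcat1 (-0.62 ± 0.08) and Fasn (-0.59 ± 0.20) fell, and the call for Fasn ended without controls 3 and 4 (adjusted p = 0.079).

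Of 12 alveolar type 1 markers, 9 fell and 3 did not pass (median -0.34). Aqp5, the apical water channel, gave 949, 967, 968 and 1010.5 in LPS lungs, against 1529, 1837, 1791 and 1873 in control lungs (-0.83 ± 0.09, adjusted p = 1.1e-07). Gprc5a gave 974, 1114, 935 and 1172 in LPS lungs, against 1626, 1781, 2060.1 and 2231 in control lungs (-0.85 ± 0.14). Neither gene overlapped between the groups, whereas the fall of Ager was smaller (-0.35 ± 0.08). Of 12 airway secretory genes, 2 rose and 1 fell, and Scgb1a1 did not pass (-0.05 ± 0.06), although at its intensities, near the top of the array's range, a change can be understated. Of 10 ciliated cell genes, 4 fell and 6 did not pass (median -0.18). Their summed intensity lay between 2379 and 2701 in LPS lungs and between 2938 and 3286 in control lungs, with no overlap. Extracellular matrix genes were mostly lower, 10 of 19 fallen and 1 raised (median -0.34). They included elastin at 533, 413, 471 and 575 in LPS lungs, against 964, 798, 1024 and 1033 in control lungs (-0.90 ± 0.18), and the matrix proteoglycan Bgn (-0.55 ± 0.10). For Eln, 1 of 2 probe sets passed. Of 14 metalloproteases and inhibitors, 6 rose, led by the inhibitor Timp1 (2.24 ± 0.15) and the aggrecanase Adamts4 (1.81 ± 0.21), and 4 fell.

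Early-response genes rose in part. Of 27 immediate early genes, 17 rose and 10 did not pass (median 0.64). The AP-1 family genes Atf3 (2.06 ± 0.47), Fosl2 (2.01 ± 0.19) and Junb (1.73 ± 0.26) rose, as did Myc (1.38 ± 0.12) and the stress-inducible gene Gadd45g (2.40 ± 0.21). Egr1 gave 1574, 1576, 1411 and 1774 in LPS lungs, against 1001, 629, 419 and 356 in control lungs (1.45 ± 0.42). The groups did not overlap for Egr1, but control 1 was the highest control, and the call ended without control lungs 3 and 4 (0.96, adjusted p = 0.16). Fos (0.64 ± 0.41), Jun (-0.12 ± 0.20) and the orphan receptor Nr4a1 did not pass, and Nr4a1 gave 225, 154, 161 and 267 in LPS lungs, against 509, 828, 371 and 248 in control lungs, with overlap. With only the compared arrays in the fit, Fos and Nr4a1 passed (adjusted p = 0.024 and 0.0089). Of 2 Jun probe sets, the one not used here passed as higher (0.41).

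Of 20 heat shock and unfolded protein genes, 9 rose and 11 did not pass (median 0.54), and 6 rose without control lungs 3 and 4. The unfolded protein factor Xbp1 (1.04 ± 0.08) and the chaperone Hspa5 (0.61 ± 0.11) rose. The inducible chaperone Hspa1b gave 2098, 1151, 830.2 and 650.1 in LPS lungs, against 293, 326, 138 and 151 in control lungs. Its LPS arrays spread widely, 1 of its 3 probe sets passed, and its call (2.17 ± 0.79, adjusted p = 0.033) ended without LPS lung 1 or 2 or control 3 or 4, where adjusted p ran from 0.065 to 0.099. Cyp1a1, the P450 of the aryl hydrocarbon receptor, gave 228, 319, 431 and 451 in LPS lungs, against 93.8, 134, 59.7 and 38.5 in control lungs (1.81 ± 0.61, adjusted p = 0.022), and that call ended without LPS lung 3 or 4 or control 4 (adjusted p from 0.054 to 0.066). Without control lungs 3 and 4 together, the calls for Hspa1b (adjusted p = 0.21) and Cyp1a1 (0.18) ended as well. The aryl hydrocarbon receptor gene Ahr (-0.93 ± 0.12) itself fell. Cell cycle genes differed little: 3 of 21 fell and the rest did not pass, with Rrm1 (-0.37 ± 0.12) and Mcm6 (-0.48 ± 0.15) among those that fell. The Mcm6 call ended without control 1 (adjusted p = 0.055).

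Genes that glucocorticoids switch on mostly rose. Of 12 glucocorticoid-responsive genes, 9 rose and 3 did not pass (median 0.97). Fkbp5, a chaperone of the steroid receptor, gave 377, 375, 409 and 348 in LPS lungs, against 86.0, 62.8, 97.9 and 150.3 in control lungs (1.68 ± 0.24, adjusted p = 3.2e-06). Zbtb16 gave 306, 244, 273 and 248 in LPS lungs, against 164, 75.1, 112 and 63.4 in control lungs (1.20 ± 0.28). Errfi1, an inhibitor of the EGF receptor, gave 2780.1, 1757, 1624 and 2542 in LPS lungs, against 698, 1025, 588 and 812 in control lungs (1.43 ± 0.27). The groups did not overlap in these 3 genes, and LPS lungs 1 and 4 were the highest for Errfi1. For Zbtb16, 2 of 3 probe sets passed. Per1, which both the clock and glucocorticoids control, gave 180.4, 163, 145 and 221 in LPS lungs, against 50.4, 99.3, 60.3 and 117 in control lungs (0.91 ± 0.30, adjusted p = 0.019). Its call ended without LPS lung 4 (0.056), control 1 (0.068) or control 3 (0.054, all adjusted p). Klf9 (0.40 ± 0.15) lost its call without any 1 of LPS lungs 1 to 3 or controls 1 to 3 (adjusted p from 0.051 to 0.10). The receptor gene Nr3c1 did not pass (0.06 ± 0.09), and with the mean over its probe sets the value was -0.12. Tsc22d3 (0.36) did not pass in adults either, with 0 of its 3 probe sets called. With only the compared arrays in the fit, Tsc22d3 passed (adjusted p = 0.039). Of 15 circadian clock genes, 3 rose, Per1, Bhlhe40 (2.04 ± 0.14) and Cry1 (0.69 ± 0.14), and 12 did not pass.

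The LPS effect was then tested for a difference between adult and juvenile lungs, as the adult log2 fold change minus the juvenile one. Of the 13089 genes, 483 differed (3.69%), with 172 having a higher value in adults (1.31%) and 311 a lower one (2.38%). Over the same genes 2999 (22.9%) passed in juveniles, and the median difference was -0.02. By the sign of the fold changes, 226 of the 483 ran in opposite directions at the 2 ages, of which 32 passed at both ages. Another 144 were above 0 at both ages, 61 further in adults and 83 less far, and 113 were below 0 at both, 98 further in adults and 15 less far. The 2 ages do not share control samples. Xist lay between 18.4 and 21.8 in juvenile LPS lungs and between 20.2 and 589 in juvenile control lungs. The Y-linked Eif2s3y lay between 174 and 233 in juvenile LPS lungs and between 9.69 and 194 in juvenile control lungs. The juvenile controls, unlike the adult ones, were thus mixed for both sex-linked genes. Sex and LPS therefore cannot be fully told apart in juveniles, nor in the age differences. Of the 60 named genes that differed by age, 19 lost the call when some 1 of the 16 arrays was left out, and of the 206 named genes that passed in adults 13 did so when some 1 of their 8 arrays was left out. Without adult controls 3 and 4, 18 of the 60 age differences were lost, among them those of Pdk4 (adjusted p = 0.061), Sox18 (0.077), Cxcl10 (0.080), Cd14 (0.091) and Cx3cr1 (0.12).

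**Figure D4:**
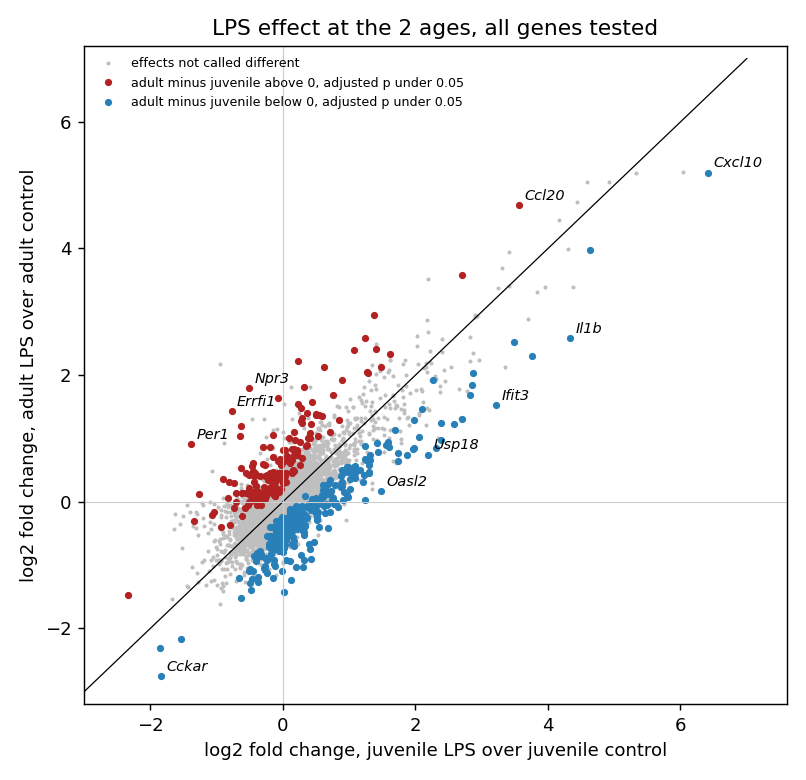
Log2 fold change after inhaled LPS in adults (vertical axis) against that in juveniles (horizontal axis) for all 13089 genes, with the line of equal effect. Red and blue points mark the 172 genes with a higher and the 311 with a lower value in adults. Glucocorticoid-responsive genes such as Per1 and Errfi1 lie above the line, and Il1b and interferon-stimulated genes such as Ifit3 below it.

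Many glucocorticoid-responsive genes differed between the ages. Of 12 members, 9 had a higher LPS effect in adults and the rest did not pass (median difference 1.29). The list median was above 0 in adults (0.97) and below 0 in juveniles (-0.59). Per1, listed above for adults, gave 55.8, 171, 58.3 and 32 in juvenile LPS lungs, against 165, 326, 155 and 336 in juvenile control lungs, and its effects differed by 2.30 ± 0.42 (adjusted p = 0.0022). Errfi1 gave 820.4, 875, 679 and 694 in juvenile LPS lungs, against 1128, 1598, 637 and 2671 in juvenile control lungs, a difference of 2.21 ± 0.38. All 4 juvenile controls lay above all 4 adult controls for Per1, and the controls of the 2 ages overlapped for Errfi1. Over the glucocorticoid-responsive genes, the mean log2 level was 9.54, 9.21, 9.19 and 9.50 in adult LPS lungs, 8.34, 8.43, 8.38 and 8.57 in adult control lungs, 8.91, 9.32, 8.73 and 8.76 in juvenile LPS lungs and 9.22, 9.38, 8.70 and 10.02 in juvenile control lungs. Juvenile control 4 was the highest of all 16 arrays, and without it 9 members still differed. The natriuretic peptide clearance receptor Npr3 (2.30 ± 0.30), Fam107a (1.99 ± 0.42), Tmem252 (1.71 ± 0.30), the pyruvate dehydrogenase kinase Pdk4 (1.69 ± 0.41) and Il1r2 (1.58 ± 0.41) were also among the 8 highest differences. The Il1r2 difference was lost without LPS lung 1 or 4, control 1 or 2 or juvenile LPS lung 4 (adjusted p from 0.050 to 0.077).

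Some interferon-stimulated genes rose less in adults. Of 25 members, 9 had a lower LPS effect in adults and the rest did not pass, with list medians of 0.74 in adults and 1.48 in juveniles. Ifit3, given above for adults, had 2413, 1532, 2663 and 2936 in juvenile LPS lungs, against 183, 209.8, 266 and 231 in juvenile control lungs. Adult LPS arrays were below all juvenile LPS arrays and adult controls above all juvenile controls, and the difference was -1.69 ± 0.29 (adjusted p = 9.3e-04). Usp18, which shuts down the interferon receptor, had 226, 311, 397 and 372 in adult LPS lungs, against 204, 167, 179 and 166 in adult control lungs. In juveniles Usp18 gave 623, 446, 737 and 781 in juvenile LPS lungs, against 108, 103, 147 and 100.5 in juvenile control lungs, a difference of -1.45 ± 0.24. Cmpk2 (-1.46 ± 0.28) and Gbp2 (-1.40 ± 0.39) were also among the 8 lowest, and the Gbp2 difference was lost on leaving out most arrays singly (adjusted p from 0.054 to 0.086).

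Il1b had the lowest difference of all genes that passed, -1.75 ± 0.46 (adjusted p = 0.028), with juvenile values of 1686, 1439, 1840.5 and 1414 in juvenile LPS lungs, against 47.0, 42.2, 41.6 and 65.2 in juvenile control lungs. Adult LPS lungs were the highest of the 4 groups, and the juvenile controls lay below every adult control. The difference was lost without adult LPS lung 1 or 4, adult control 3 or 4 or juvenile LPS lung 1 or 3 (adjusted p from 0.051 to 0.072), and without both control lungs 3 and 4 it was -0.98 (adjusted p = 0.22). Of 14 acute phase and defence proteins, 6 had a lower effect in adults, which included Saa1 (-1.46 ± 0.24) and Serpina3n (-1.40 ± 0.24). Among chemokines, Ccl20 rose more in adults (1.12 ± 0.16) and Cxcl10 less (-1.22 ± 0.31). The median over the neutrophil-attracting CXC chemokines was 4.90 in adults and 4.51 in juveniles. Juvenile Ccl20 values were 751, 539, 643 and 579 in juvenile LPS lungs, against 25.7, 21.5, 24.9 and 20.8 in juvenile control lungs, so that juvenile LPS lungs lay below all adult LPS lungs. Elf5 (-0.46 ± 0.12), Etv5 (-0.63 ± 0.13) and Cckar (-0.92 ± 0.12) fell more in adults. The adult LPS arrays of Elf5 and Cckar lay near the array median, so the size of their falls is limited by background and depends on the control level. The Cxcl10 difference ended without adult LPS lung 1, adult control 3 or juvenile LPS lung 1, 3 or 4 (adjusted p from 0.051 to 0.068), and that of Elf5 when any 1 of 10 arrays was left out (0.051 to 0.081). Sox11, at 134, 120.0, 150.5 and 171 in adult LPS lungs, against 510.0, 541, 345 and 379 in adult control lungs, fell in adults and gave 517, 445, 425 and 564 in juvenile LPS lungs, against 524, 686, 625 and 232 in juvenile control lungs (-1.43 ± 0.29).

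**Figure D5:**
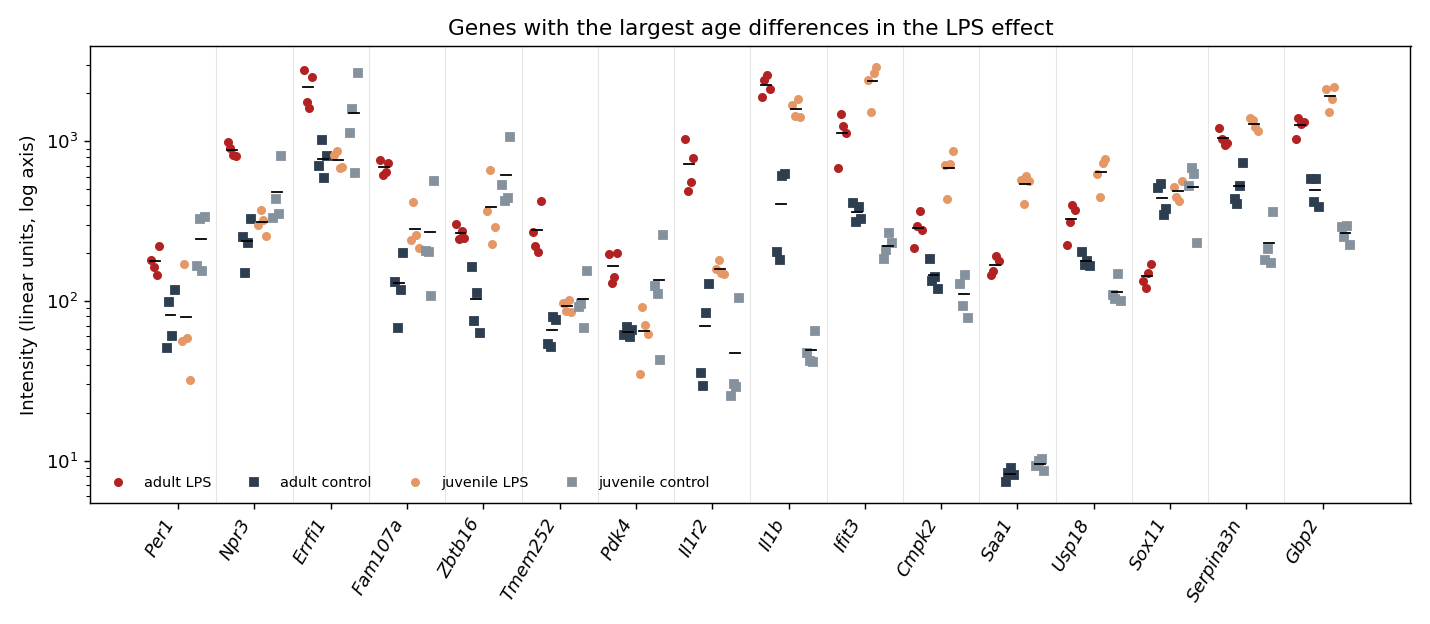
Intensity (linear units, log axis) of the 8 genes with the highest and the 8 with the lowest adult minus juvenile LPS effect, with 1 point per array and bars at the group means, in the order adult LPS, adult control, juvenile LPS, juvenile control. For Il1b the adult controls (180.0 to 629) lie above the juvenile controls (41.6 to 65.2).

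Levels in the ventilated adult groups are given for a few members without a test. A contrast of these groups against untreated lungs would share the controls used here. Cxcl1 averaged 1644 ± 121 after LPS alone, 3429 ± 957 after LPS followed by ventilation, 48.6 ± 22.5 after ventilation alone and 14.0 ± 1.65 in controls (SD, n = 4 each). Etv5 averaged 105 ± 7.13 after LPS alone, 59.4 ± 7.99 after LPS and ventilation, 317 ± 31.4 after ventilation alone and 583 ± 22.5 in controls. Cckar, at 24.2 ± 1.91 after LPS alone and 22.6 ± 5.79 after LPS and ventilation, was at 259 ± 27.9 after ventilation alone and 349.8 ± 28.7 in controls. For Zbtb16 the level was 268 ± 28.4 after LPS alone, 562 ± 177 after LPS and ventilation, 626 ± 139 after ventilation alone and 104 ± 45.2 in controls. All 4 adult arrays with ventilation alone had high Xist, unlike the 8 arrays compared here. Those with LPS and ventilation were mixed, at 18.2 to 634 for Xist and 6.81 to 194 for Eif2s3y.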

How the data were processed

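Total lung RNA was hybridised to Affymetrix whole-genome mouse expression arrays, 1 per sample. The deposited values are intensities per probe set on a linear scale, from 4.50 to 25073, and MAS5 is the only tool named, per the submitters' processing notes. Background correction, summary and scaling are not given in the sources used here. Array medians lay between 21.6 and 22.8 as deposited, and no further scaling was applied for the reported fit. The step that gave such close medians is not stated. No 2 arrays held identical values.

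Here log2(intensity + 32) was computed from the deposited intensities, which understates changes of dim genes. A probe set was kept if it exceeded its own array's median on at least 3 of the 30 arrays, which left 24825 of 45037. GEO's platform annotation gave 1 symbol to 34945 probe sets, several to 932 and none to 9160, and 34741 of the first were found in the RefSeq gene table with 0 symbols changed. Only probe sets with 1 symbol were named. Each gene is represented by its brightest kept probe set on average, which gave 13089 tested genes, 5611 of them with a choice of probe sets and 1401 on a probe set whose name marks possible binding to related transcripts. Among 241 named genes here, 106 had several probe sets. Of 93 such genes that passed, 67 had every probe set passing the same way, 26 had some that did not pass and 0 had one passing the other way. Those 26 include Lifr, Irf5, Msr1, Egfr, Mcm6, Atf4, Csf1, Irak3, Nfkbiz and Slc12a2.

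limma 3.58.1 in R 4.3.3 was fitted to all 30 arrays with 1 mean for each of the 8 groups and an intensity trend in eBayes, and p-values were adjusted by Benjamini-Hochberg over all genes, with 0.05 as the threshold. The age difference was tested as an interaction contrast in the same fit. On simulated data with 200 of 13089 genes changed in adult LPS arrays, 83% of log2 changes of 0.5 and 98% of changes of 1 were recovered, with 12 false among 193 calls. The simulated noise was independent between arrays, with 1 spread per gene, and far fewer genes changed than passed here. These rates therefore need not hold for the real arrays. The number of arrays limits the precision. Nothing in the labels says that arrays of a group share an animal or extract.

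Replicate numbers are shared by the groups in the labels. The deviations of same-numbered arrays from their group means correlated between -0.159 and 0.15 in adults and between -0.117 and 0.201 in juveniles, so the numbers were not taken to pair the animals.

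The members, gene lists and naming rule were chosen with earlier results of these data known. The text names the 16 highest and 12 lowest fold changes among called genes with no overlap between groups, up to 3 members of each list by smallest p, the 8 highest and 8 lowest age differences, and further list members. Alternatives covered a pseudocount of 1, array weights, quantile normalization, no trend, all dim probe sets kept, the average over a gene's probe sets, only the compared arrays, a replicate block and each array left out. Leaving out adult controls 3 and 4 together was chosen after seeing the data. Promoter sequences are from RefSeq.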

Additional observations from a re-analysis of the deposited data

Results flagged for a closer look

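Single arrays stood apart from the other 3 of their group in 27 of 482 gene and group combinations examined among the named genes, by a gap test that chance meets in about 1 of 20. For LPS lung 1 the intensity stood apart in Cxcl16 (450.3), Ifit1 (1005), Fpr2 (1383), Ereg (49.4), Cxcr2 (1045), Ifit2 (315), Mmp8 (1798), Ngp (499.5) and Rsad2 (1013). For LPS lung 2 the intensity stood apart in Il1rn (294) and Nr3c1 (1159). For LPS lung 3 the intensity stood apart in Fhdc1 (143), Dusp16 (701) and Alas2 (1295). For LPS lung 4 the intensity stood apart in Msr1 (54.8), Angptl4 (730.0) and Cxcl15 (7275). For control lung 1 the intensity stood apart in Gadd45g (108), Gch1 (65.7), Bhlhe40 (259.8) and Adm (191). For control lung 2 the intensity stood apart in Ppp1r14c (638), Ptger4 (91.3) and Alas2 (941). For control lung 3 the intensity stood apart in Slc39a14 (42.2). For control lung 4 the intensity stood apart in Ifit1 (133) and H2-DMa (437).

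The LPS effect differed between adults and juveniles in 60 named genes by limma's test of the difference itself, given here as the adult minus the juvenile log2 fold change. The value was above 0 in Per1 (2.30), Npr3 (2.30), Errfi1 (2.21), Fam107a (1.99), Zbtb16 (1.83), Tmem252 (1.71), Pdk4 (1.69), Il1r2 (1.58), Trem1 (1.51) and Gadd45g (1.32). Smaller values above 0 were those of Cdkn1a (1.31), Tsc22d3 (1.27), Angptl4 (1.14), Ccl20 (1.12), Sgk1 (1.0), Csf3 (1.0), Myc (0.88), Acod1 (0.87), Bex2 (0.86), Klf9 (0.85), Tiparp (0.79), Plaur (0.77), Bhlhe40 (0.76), Xbp1 (0.51) and Hif1a (0.44). It was below 0 in Il1b (-1.75), Ifit3 (-1.69), Cmpk2 (-1.46), Saa1 (-1.46), Usp18 (-1.45), Sox11 (-1.43), Serpina3n (-1.40), Gbp2 (-1.40), Ifit2 (-1.35), Oasl2 (-1.32), Cxcl10 (-1.22), Csf1 (-1.13), Lifr (-1.08), Bmp4 (-1.04) and Parp14 (-1.03). Smaller values below 0 were those of Ahr (-0.98), Csf2 (-0.98), Cckar (-0.92), Irx5 (-0.91), Dixdc1 (-0.89), Sox18 (-0.82), Cx3cr1 (-0.72), Adamts5 (-0.66), Irak3 (-0.65), Cd14 (-0.65), Srebf1 (-0.63), Etv5 (-0.63), Acvrl1 (-0.60), Fmo1 (-0.60), Scnn1g (-0.51), Tapbp (-0.51), Aqp5 (-0.50), Elf5 (-0.46), Abcg1 (-0.35) and Sod2 (-0.35).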

How the results depend on the processing

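Over the settings tried, which include each array left out in turn, between 3871 and 5486 genes passed in adults, against 4706 as reported. With 1 array left out the count was 3900 to 4408, with 1456 to 1592 higher, 2444 to 2872 lower and 297 to 341 changed by at least 2-fold. A pseudocount of 1 gave 518 such genes. The age difference gave 332 to 825 genes with 1 array left out (109 to 363 higher, 215 to 462 lower). It gave 825 and 363 without juvenile control 4, 114 higher without adult LPS lung 4 and 109 higher without adult control 3. Array weights gave 943 (405 higher, 538 lower), and leaving out adult controls 3 and 4 together gave 112 higher. The causes were not tested.

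The replicate block gave 4868 genes in adults (1738 higher, 3130 lower, 324 at least 2-fold) and 549 for the age difference (202 higher, 347 lower). As the numbers were not taken to pair the animals, this is a description.

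Of 206 named genes that passed in adults, 20 lost the call under at least 1 setting, and of 60 named age differences 24 did. None of these changed sign. Of 35 named genes that did not pass in adults, 14 passed under at least 1 setting, 11 of them with only the compared arrays in the fit. Signs turned in genes that did not pass as reported. Quantile normalization gave Sftpc -0.026, and the mean over probe sets gave Jun 0.14 and Nr3c1 -0.12. With 1 array left out in turn, Ngp ranged from -0.72 (without LPS lung 1) to 0.51 (without control 4), Camp from -0.38 to 0.046, Jun from -0.28 to 0.023, Cox7a1 from -0.22 to 0.029 and Nos2 from -0.018 to 0.052. Without both controls 3 and 4, Ngp was 1.03, Ppbp 0.24, Camp 0.20, Chil3 0.080, Slc4a1 0.054, Nos2 -0.015 and Nr3c1 -0.061. All are log2 fold changes. With these 2 controls left out the median over the neutrophil markers was 2.32, and without control 2 alone it was 0.93.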
